A study of Phaseolus vulgaris with 6 samples.

Results

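Among the 27433 genes listed for hair-like structures of the common bean (Phaseolus vulgaris), 4 had levels that were highest in the AG trichomes, lower in the EPI trichomes and lower again in the BG hooked hairs. These genes were chosen by their levels in TPM (transcript abundance as a share of the library), a measure scaled for transcript length and library size. Both AG libraries had to reach 20 TPM, the lower AG value had to be at least 2 times the higher EPI value, and the lower EPI value at least 2 times the higher BG value. They are Phvul.002G102800.v2.1, Phvul.006G115700.v2.1, Phvul.010G129900.v2.1 and Phvul.010G145000.v2.1.

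Trichomes are hairs that grow out of the plant epidermis. Those of the common bean include straight and hooked forms, and hooked hairs on bean leaves are known for catching small insects. Trichomes can serve as barriers and as sites of synthesis and storage of protective compounds.

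RNA was sequenced from 6 libraries of the genotype L88-57, kept in a growth chamber under low light and given no treatment. The 3 groups of 2 libraries were AG and EPI, which the labels call trichomes, and BG, the hooked hairs. The codes are not spelled out in the labels, so an organ or a position on the plant cannot be told apart from the kind of hair. It is not stated whether the paired libraries of each group were taken from different plants, so the spread between them may be technical. The files give no product names for any of the genes, and cell type markers were therefore not examined.

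Of the listed genes, 7412 reached 20 TPM in both AG libraries. Among these, 343 also showed the first step, from AG to EPI, and 681 showed the second, from EPI to BG. Only 4 genes met both conditions under the deposited TPM scaling. In a looser reading, 439 of the 7412 genes had groups in the order AG, EPI, BG without overlap. Of the 21571 genes that reached 1 TPM in 2 or more libraries, 3.68% had this order at any AG level, and 0.0185% met the full rule with its AG minimum. The values that chose the 4 genes are the values described here, so their direction is fixed by the choice and is no finding.

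**Figure D1:**
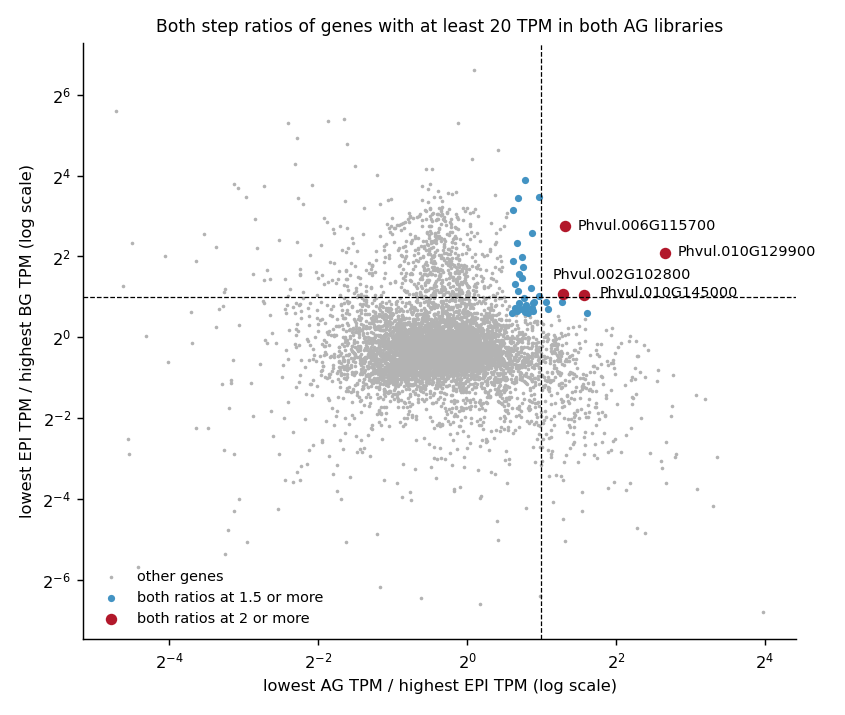
Each point is a gene with at least 20 TPM in both AG libraries (7412 genes). The horizontal axis is the lowest AG value over the highest EPI value and the vertical axis the lowest EPI value over the highest BG value, both as TPM ratios on log scales, with dashed lines at 2. The 4 genes above both lines are red, the 34 others with both ratios at 1.5 or more are blue, and Phvul.010G129900.v2.1 stands farthest to the right of the 4 at 6.33.

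Phvul.002G102800.v2.1 was the most abundant of the 4 genes in every library. It lies on the plus strand of chromosome 2 (21848877 to 21859424) and spans 10548 bp, longer than 93.8% of the 21571 genes. Its level was 138 and 83.1 TPM in AG libraries 1 and 2, 33.5 and 34.0 TPM in the EPI libraries, and 15.9 and 10.1 TPM in the BG libraries. The EPI libraries were nearly equal, and the gene was still present in both hooked hair libraries. The AG mean was 110.4 ± 38.6 TPM, the EPI mean 33.8 ± 0.338 TPM and the BG mean 12.99 ± 4.07 TPM (SD, n = 2). It had the shallowest first step, 2.44, and its second step of 2.11 lay close to the limit.

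Phvul.010G129900.v2.1 had the steepest first step. It is a short gene of 1072 bp on the minus strand of chromosome 10 (41092877 to 41093948). The AG libraries held 130 and 47.4 TPM, the EPI libraries 6.90 and 7.50 TPM, BG library 1 held 1.62 TPM, and in BG library 2 the gene was listed at 0. The lower AG value was 6.33 times the higher EPI value, and the lower EPI value was 4.26 times that of BG library 1. In AG library 1 it stood above 95.4% of all listed genes, and in the EPI libraries above 45.4% and 45.9% of them.

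Phvul.006G115700.v2.1 was the gene for which the second step exceeded the first. It spans 1902 bp on the plus strand of chromosome 6 (22409854 to 22411755). The AG libraries held 88.8 and 21.6 TPM and the EPI libraries 8.66 and 6.18 TPM. It stood at 0.916 TPM in BG library 1 and was listed at 0 in BG library 2. The first step was 2.50 and the second 6.75. With AG library 2 at 21.6 TPM, the gene passed the minimum of 20 TPM narrowly.

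Phvul.010G145000.v2.1 lies on the plus strand of chromosome 10 (42648673 to 42652249), with a span of 3577 bp. The AG libraries stood at 106 and 27.7 TPM, the EPI libraries at 6.21 and 9.35 TPM, and the BG libraries at 3.03 and 0.930 TPM. The level was thus detectable in all 6 libraries, and the difference between EPI and BG was the smaller one, with steps of 2.97 and 2.05. The second step was the narrowest of the 4 genes.

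**Figure D2:**
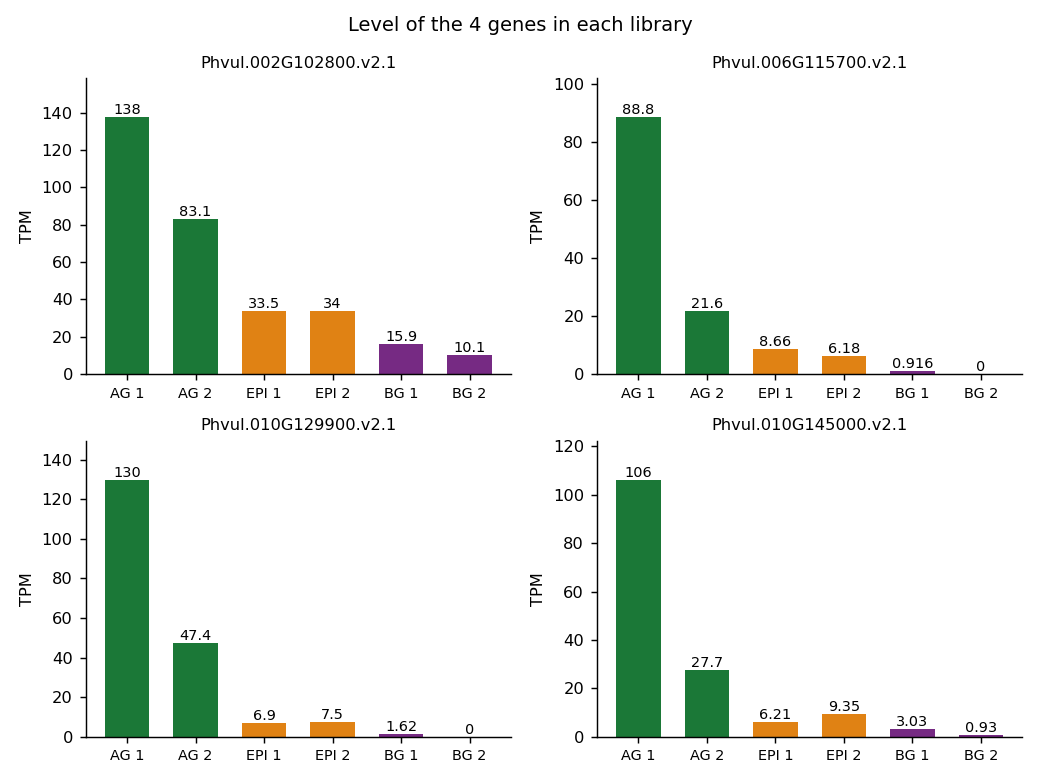
Bars give the TPM of each of the 4 genes in each of the 6 libraries, coloured by group (AG, EPI and BG), on axes that start at 0 and differ between panels. AG library 1 is the highest bar in every panel, and Phvul.006G115700.v2.1 and Phvul.010G129900.v2.1 have no bar in BG library 2, where they were listed at 0.

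Taken from end to end, the lowest AG value exceeded the highest BG value by 29.3 times for Phvul.010G129900.v2.1, 23.6 times for Phvul.006G115700.v2.1, 9.15 times for Phvul.010G145000.v2.1 and 5.24 times for Phvul.002G102800.v2.1. Summed, the 4 genes reached 463 and 180 TPM in the AG libraries, 55.3 and 57.0 TPM in the EPI libraries, and 21.4 and 11.0 TPM in the BG libraries. The order of the groups in the sum is fixed by the choice of the genes. In the BG libraries most of the sum came from Phvul.002G102800.v2.1, with 15.9 and 10.1 TPM. In bulk RNA such as this, fewer cells that express a gene and less of its RNA per cell cannot be told apart.

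The low end rested on thin coverage for all but Phvul.002G102800.v2.1. The deposited mean depth per base in BG libraries 1 and 2 was 25.8 and 12.9 for Phvul.002G102800.v2.1 and 4.42 and 1.19 for Phvul.010G145000.v2.1. Phvul.010G129900.v2.1 had 2.63 and Phvul.006G115700.v2.1 had 1.49 in BG library 1, and both had 0 in BG library 2. In AG library 1 the depth of the 4 genes was 112 to 173 (Phvul.006G115700.v2.1 and Phvul.002G102800.v2.1). Over the series, 19194 to 20556 genes reached 1 TPM in a library, and the deepest library was 1.47 times as deep as the shallowest, judged from deposited coverage per FPKM and assuming that all reads had the same length.

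The 4 genes differed between the AG libraries. Library 1 stood above library 2 by 4.10 times for Phvul.006G115700.v2.1, 3.83 times for Phvul.010G145000.v2.1, 2.74 times for Phvul.010G129900.v2.1 and 1.66 times for Phvul.002G102800.v2.1. Of the 7412 genes with at least 20 TPM in both AG libraries, 41.1% were higher in library 1, with a median ratio of 0.936. The ratios of the first 3 genes were at or above those of 99.4%, 99.3% and 97.8% of these genes, and that of Phvul.002G102800.v2.1 at or above 90.6%. Among the 343 genes that showed the first step, 67.6% were higher in AG library 1, with a median ratio of 1.18. All 4 genes were also higher in BG library 1 than in BG library 2. Of the genes with at least 20 TPM in both AG libraries and unequal BG values, 45.9% were. For the 4 genes the lower limit of AG was thus set by AG library 2 and the upper limit of BG by BG library 1. The EPI libraries lay closer together and had no common order: 1 gene, Phvul.006G115700.v2.1, was higher in EPI library 1 and 3 were higher in EPI library 2.

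**Figure D3:**
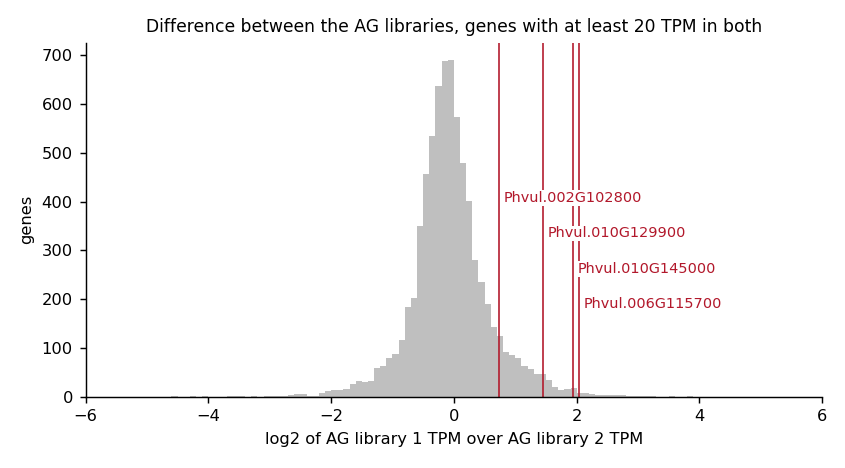
The histogram gives, for the 7412 genes with at least 20 TPM in both AG libraries, the log2 ratio of AG library 1 to AG library 2 in TPM, and red lines mark the 4 genes. All 4 lie to the right of the centre, Phvul.006G115700.v2.1 farthest at a ratio of 4.10.

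On the log2(TPM + 1) scale fitted with limma over the 21571 genes, the change from AG to BG was -5.62 ± 0.64 (SE) for Phvul.010G129900.v2.1, -5.03 ± 0.70 for Phvul.006G115700.v2.1, -4.31 ± 0.69 for Phvul.010G145000.v2.1 and -2.98 ± 0.34 for Phvul.002G102800.v2.1. The median over all genes tested was 0.18. The pseudocount of 1 shortens the change of the first 2, whose BG values lie near or at 0. From AG to EPI the changes were -3.28, -2.44, -2.68 and -1.64 in the same order of genes, against a median of 0.15 over all genes. From EPI to BG they were -2.34, -2.59, -1.63 and -1.34, against 0.04. The EPI libraries took part in the last 2 sets of changes with opposite signs, so these are not independent. By this measure Phvul.006G115700.v2.1 alone had the larger change in the second step. Its steps differed by less than the standard error of each single step, 0.70. The standard error of that difference was not computed. With a pseudocount of 0.1, Phvul.010G129900.v2.1 also had the larger change in the second step (-4.14 against -3.43), and with a pseudocount of 10 the first step was the larger for Phvul.006G115700.v2.1 (-1.69 against -0.73). Whether the steps of a gene differed in size was not tested.

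In the comparison of BG with AG, all 4 genes were among those called lower (limma, Benjamini-Hochberg adjusted p under 0.05), where 5.34% of all genes tested were. Since the choice used this contrast, nothing follows from the count. Without AG replicate 1, without BG replicate 1 or without BG replicate 2, no gene of the series was called by limma (0 genes), the 4 included, with 4275, 4912 and 3872 genes under an unadjusted p of 0.05. Without the filter on low values 333 of 25421 genes were called lower, 2 of the 4 among them. In BG against EPI, 0 of the 4 were called, with 3.32% of all genes called lower. In EPI against AG no gene of the series was called lower (0% by limma), although 1299 genes were lower at an unadjusted p under 0.05. Each single step of the 4 genes is therefore a separation of 2 libraries from 2, without a call across the whole table.

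For each limit of the choice, the nearest genes outside it were taken among those that met the other conditions. Just outside the first step were Phvul.009G225500.v2.1, with a ratio of 1.96, and Phvul.006G169000.v2.1, with 1.95, against 2.44 and 2.50 for Phvul.002G102800.v2.1 and Phvul.006G115700.v2.1 just inside. Phvul.009G225500.v2.1 had AG values of 87.2 and 36.7 TPM, EPI values of 18.7 and 11.99 TPM, 1.09 TPM in BG library 1 and a listed 0 in BG library 2. Just outside the second step were Phvul.011G136115.v2.1 (1.84) and Phvul.011G097600.v2.1 (1.82), against 2.05 and 2.11 for Phvul.010G145000.v2.1 and Phvul.002G102800.v2.1 inside. Below the AG minimum, the nearest genes with both steps were Phvul.007G219400.v2.1, with a lower AG value of 13.8 TPM, and Phvul.008G282000.v2.1, with 12.8 TPM. The members just inside it stood at 21.6 TPM (Phvul.006G115700.v2.1) and 27.7 TPM (Phvul.010G145000.v2.1). Without any minimum, 21 genes had both steps.

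The 4 genes did not lie together. Phvul.010G129900.v2.1 and Phvul.010G145000.v2.1 share chromosome 10 but are 1554724 bp and 156 listed genes apart. None of the 4 overlaps another listed gene on either strand. Their spans lay on both sides of the median of 3354 bp over the 21571 genes. Among the 5 neighbours on each side of the 4 genes, 40 in all, 31 reached 1 TPM in at least 2 libraries, and 2 of these had groups in the order AG, EPI, BG without overlap, where 3.68% of the 21571 genes had it. They were Phvul.006G115400.v2.1, with AG, EPI and BG means of 25.1 ± 9.47, 16.6 ± 0.709 and 12.99 ± 1.02 TPM, and Phvul.010G145100.v2.1, with means of 53.5 ± 7.14, 31.1 ± 5.22 and 23.5 ± 4.94 TPM (SD, n = 2). Phvul.010G145100.v2.1 is the next gene after Phvul.010G145000.v2.1, 9073 bp away on the same strand. The neighbours were examined after the values of the 4 genes were known.

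Both genes next to Phvul.002G102800.v2.1 were at or near 0. The nearest gene before it, 58540 bp away, did not exceed 0.642 TPM in any library, and the nearest after it, Phvul.002G102900.v2.1 at 39042 bp, was listed at 0 in all 6. Farther out, Phvul.002G103100.v2.1, the third gene after it, stood at 68.1 to 91.0 TPM in the 6 libraries.

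Phvul.010G129900.v2.1 lies at the end of a row of 4 genes of 627 to 1072 bp on the minus strand, with unlike profiles. Its neighbour Phvul.010G129800.v2.1, 4174 bp away, stood at 6.54 and 0.123 TPM in AG, was listed at 0 in both EPI libraries and reached 18.3 and 140 TPM in BG. The next, Phvul.010G129700.v2.1, had AG values of 2.86 and 0.518 TPM, EPI values of 371 and 10.7 TPM, and BG values of 169 and 554 TPM. Both were thus higher in each BG library than in either AG library, the reverse of Phvul.010G129900.v2.1. The last of the row, Phvul.010G129600.v2.1, varied within groups, with AG values of 122 and 9.68 TPM, EPI values of 6.46 and 152 TPM and BG values of 2.64 and 16.5 TPM. Whether these short genes are similar in sequence, and so could share reads, was not tested.

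**Figure D4:**
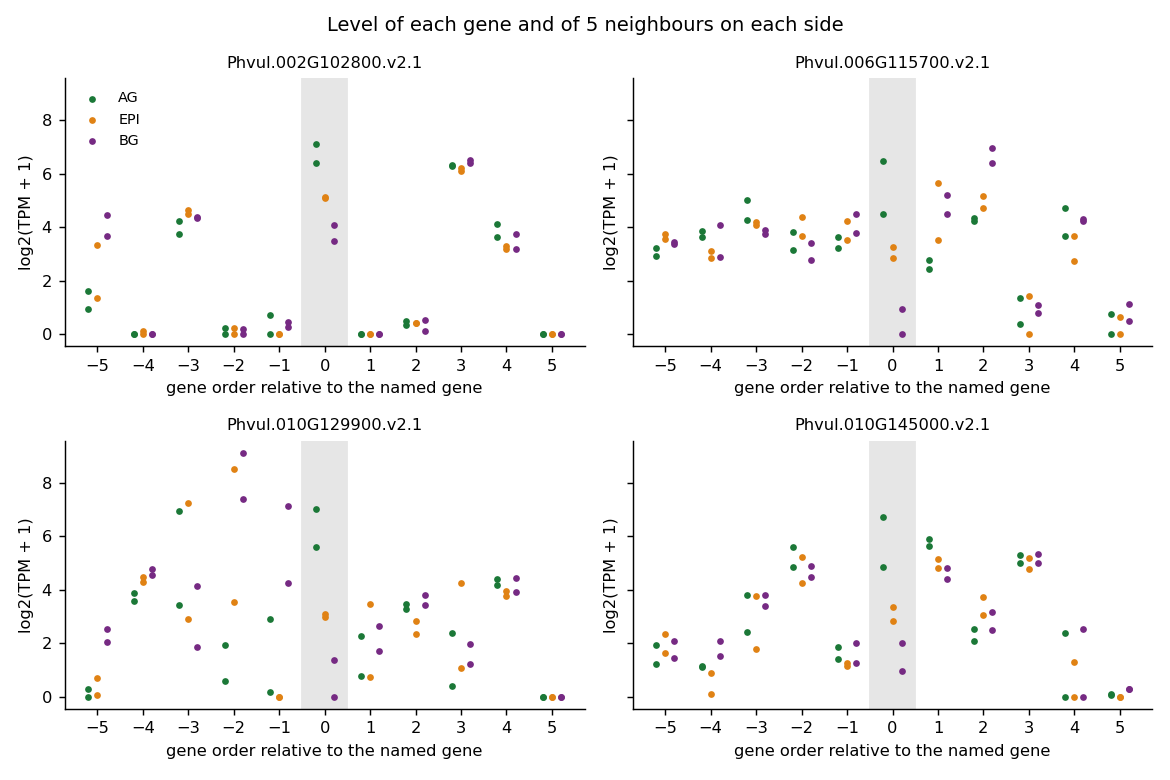
Points give log2(TPM + 1) in each library for the 4 genes (grey band, order 0) and for the 5 listed genes on each side, by their order along the chromosome. AG points lie above EPI and BG points within the grey bands, while the genes at orders -2 and -1 of Phvul.010G129900.v2.1 have BG points above their AG points.

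Positions in the files could be compared with RefSeq gene models of the assembly P. vulgaris v2.0, which give symbols but no products in the table used. Of 27012 listed genes on chromosomes, 75.9% had a RefSeq gene with a reciprocal overlap of at least 0.8. By this overlap, and on the assumption that both use the same assembly, Phvul.002G102800.v2.1 corresponds to LOC137810908, Phvul.006G115700.v2.1 to LOC137831929, Phvul.010G129900.v2.1 to LOC137819186 and Phvul.010G145000.v2.1 to LOC137819577. All 4 are protein coding in RefSeq. The overlap was 0.994, 0.970, 0.803 and 0.989 in that order.

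Genes of like profile were sought by the root mean square difference between centred log2(TPM + 1) profiles over the 6 libraries, a description chosen after the values were seen. The nearest to Phvul.002G102800.v2.1 was Phvul.002G099500.v2.1, with a difference of 0.20 log2 units. It showed both steps (3.07 and 2.66) at a lower level, with AG values of 14.6 and 7.36 TPM, EPI values of 1.82 and 2.40 TPM and BG values of 0.687 and 0.442 TPM. The nearest to Phvul.006G115700.v2.1 was Phvul.009G064900.v2.1 (0.43), followed by Phvul.009G225500.v2.1 (0.43) and by Phvul.010G129900.v2.1 (0.44). Phvul.010G129900.v2.1 in turn was nearest to Phvul.006G115700.v2.1. The rule used these same values, so nearness between the chosen genes is in part fixed by the choice. For Phvul.010G145000.v2.1 the nearest was Phvul.008G042800.v2.1 (0.37), with AG values of 474 and 71.0 TPM, EPI values of 16.5 and 31.2 TPM and BG values of 17.9 and 6.04 TPM, and so without a second step.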

How the data were processed

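The members, lists and comparisons were chosen with earlier results of these data known. Sample titles gave each library's group and replicate number. Per the labels' protocols, an RNeasy kit was used for extraction and a SMARTER mRNA-Seq kit for the libraries. The submitters' processing notes name StringTie, HISAT2 and Trimmomatic, with no version. The sources used here state neither the genome build nor whether reads were assigned by strand, and the gene IDs end in v2.1. The TPM values deposited by the authors are scaled for length and library size and summed to 920150 to 961603 per library over the listed genes. The authors' deposited FPKM served as an alternative. The deposited coverage, a signal per base, was used for depth only. Whole reads were not recovered. The product of coverage and gene span was within 0.02 of a whole number for 24.7% to 27.8% of genes of coverage under 2. A depth per base times a length gives a number of bases and not of reads. The span also runs from gene start to gene end with introns. For both reasons this product cannot decide whether whole reads could be recovered. No counts were given, so mapped read totals are unknown here and counting error could not be computed.

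Ratios were taken on TPM. With limma 3.58.1 under R 4.3.3, changes in log2(TPM + 1) were fitted with a mean per group over all 6 libraries, a variance trend and 3 residual degrees of freedom, over genes that reached 1 TPM in 2 or more libraries. P-values were two-sided and adjusted by Benjamini-Hochberg over 21571 genes. The fit was tested on simulated data with the spreads shuffled between genes. Changes were placed in BG alone, in genes of higher level, and only BG against AG was scored. The outcome is not given here. That test does not cover a spread that depends on level. With 2 libraries against 2, a single gene cannot reach a small p by permutation, so calls rest on the moderated variance. Genes were named by a rule that takes the members with the highest AG mean and the largest ratio of AG to BG (all 4), members in adjacent runs (there were 0), and the 2 genes nearest to each limit on either side. Gene lists and cell type markers by product name could not be applied, because the reference table of 34165 rows gives no products. In addition, 0 gene IDs occurred in it by name. No sequence is shown, since none was in the sources used. Figures were drawn with matplotlib 3.10.9.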

Additional observations from a re-analysis of the deposited data

How the results depend on the processing

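The number of genes that met the rule, 4, depended on its settings. It was 2 on FPKM values, where 20 is a stricter minimum, and 7 after median-of-ratios scaling, which kept 3 of the 4. Phvul.002G102800.v2.1 was lost there with a second step of 1.9997. It was 10 and 1 with an AG minimum of 10 and 50 TPM, and 38 and 1 with steps of 1.5 and 3 times. Leaving out single libraries eases the rule and gave 4 (without BG replicate 2) to 129 (without AG replicate 2), always with the 4 included. The median ratio of mean AG to mean EPI over the members was 8.03 and of mean EPI to mean BG 6.41. The rule sets a floor under both. The first was 2.64 with steps of 1.5 times, 3.27 with a minimum of 50 TPM, and 2.78 (without AG replicate 2) to 8.03 with a library left out. The second was 3.46 with a minimum of 10 TPM, 2.60 with 50 TPM, 3.45 with steps of 1.5 times, and 3.18 to 7.03 with a library left out. The genes were chosen anew under each setting, so a median can cover other genes than the 4. With a minimum of 50 TPM only Phvul.002G102800.v2.1 was left. How far this change of genes moved the medians was not tested. The sign of the log2 changes of the 4 genes is fixed by the rule, but their size moved: over the alternatives, Phvul.006G115700.v2.1 ranged from -7.11 to -2.42 in BG against AG and Phvul.010G129900.v2.1 from -4.14 to -0.67 in BG against EPI. The count of genes called was 1905 in BG against AG, 1076 in BG against EPI and 0 in EPI against AG. Without the filter on low values it was 556, 301 and 0. With a library left out it was 0 to 2430, 0 to 961 and 0 to 14. The lone library of a group was then assumed to vary like the others. BG against AG gave 0 without AG replicate 1 or either BG library, and BG against EPI gave 0 without either BG library and 8 without EPI replicate 2. The 14 calls came without EPI replicate 2. With a replicate block the counts were 1438, 855 and 0. The deviations of same-numbered libraries correlated across genes at -0.032 to 0.245, and the labels do not say that a number marks a shared batch. Median-of-ratios scaling moved the median change of all genes from 0.18 to 0.04 in BG against AG and from 0.15 to 0.01 in EPI against AG, and the changes of the 4 genes in BG against AG were then -5.73 to -3.14. The files hold no counts, so the planned count tests were not run. Phvul.006G115700.v2.1 and Phvul.010G129900.v2.1 had mean depths of 1.49 and 2.63 in BG library 1 and were listed at 0 in BG library 2. Whether depth limits these values was not tested.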

Other observations

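With both steps relaxed to 1.5 times, 34 further genes were lower in EPI than in AG and lower again in BG. This step size was chosen with the results known, and the values are given as a description. The genes lay on 10 chromosomes and 1 scaffold, with 7 on chromosome 9 and 5 each on chromosomes 4 and 6. Their mean AG level ran from 23.3 to 5401 TPM with a median of 79.4 TPM, and 14 of them stood above the most abundant of the 4 genes, Phvul.002G102800.v2.1.

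The highest, Phvul.004G097994.v2.1, had AG values of 9304 and 1498 TPM, EPI values of 373 and 809 TPM, and BG values of 237 and 60.1 TPM. The AG libraries thus lay farther apart than the highest EPI value from the lower AG value. Phvul.011G209600.v2.1 varied less within groups, with AG values of 2320 and 2602 TPM, EPI values of 999 and 1275 TPM, and BG values of 339.5 and 432 TPM. Phvul.001G106900.v2.1 had close libraries in each group, with means of 205.9 ± 5.38 (AG), 111 ± 13.2 (EPI) and 24.0 ± 2.26 TPM (BG; SD, n = 2), and missed the stricter first step with a ratio of 1.68. Of the 34 genes, 21 were higher in AG library 1 than in AG library 2, against 4 of 4 among the genes that passed steps of 2 times. The share was 41.1% of the 7412 genes with at least 20 TPM in both AG libraries. Of the 343 genes that also showed the first step of 2 times, it was 67.6%.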
